A study of Homo sapiens and Mus musculus with 6 samples.

Results

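The promoters described here are those of long noncoding RNA genes in GM12878, a human lymphoblastoid cell line made from B cells by Epstein-Barr virus transformation. They were picked by name. A bait, which is a *Hin*dIII fragment captured for the promoters on it, was counted as long noncoding when each of its symbols began with LINC, with RP, digits and a hyphen, or with CTA-, CTB-, CTC- or CTD-, the last 2 kinds being names taken from the sequenced clone. Of 15389 baits with a significant interaction called from them, 757 met this rule (4.92%), and they gave 3410 of 92929 calls (3.67%). Each call is counted for the bait it was made from, so a pair of baits called from both ends counts for each. Interactions per bait below are such calls, and pairs called only from the other end are left out. They were compared with the 12636 baits that carried no such symbol and gave 76778 interactions. The other 1996 baits carried symbols of both kinds and were left out of the comparison.

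The series used Promoter Capture Hi-C (CHi-C), in which formaldehyde-fixed chromatin is cut, ligated and enriched for promoter fragments, in untreated GM12878 cells and in mouse embryonic stem cells, which are not used here. The 3 biological replicates of GM12878 had been merged before interactions were called, so each value below comes from 1 pooled set of calls and has no spread between replicates. CHiCAGO, the algorithm that made the calls, gives each pair of fragments a score that rises as the read count exceeds the modelled background, and pairs with a score of at least 5 were listed. The files held no expression values, so whether these genes were transcribed was not measured, and the cell type could not be checked against its markers. Intervals are 95% intervals that cover counting error over baits or calls only, and since calls on neighbouring fragments are not independent they are too narrow.

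Long noncoding RNAs are transcripts, usually spliced, that carry no long open reading frame. Many start antisense to or next to a protein-coding gene, and their promoters can act in the same way as distal regulatory elements. Most are transcribed at lower levels and in fewer cell types than mRNAs. Promoters of broadly used genes mostly lie in CpG islands, stretches where the CG dinucleotide has not been depleted.

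The symbols were checked against gene starts annotated by GENCODE on the same genome build, hg19. A long noncoding start without a protein-coding start lay on 631 of the 757 baits (83.4%), a protein-coding start on 22, starts of other gene types only on 14, and no annotated start on 90. The name was thus borne out by position for most baits, but not for all. The comparison baits were mixed too, with a protein-coding start on 9077 of 12636 and a long noncoding start without a protein-coding one on 660. Clone names of the RP kind made up 636 of the members, CT names 75 and LINC names 45, and 1 bait carried several kinds. One symbol stood alone on 699 baits.

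Sequences upstream of the long noncoding starts were unlike those of coding genes. In windows from 250 bases before to 50 bases after the annotated start, the 682 long noncoding starts on member baits held a median of 3 CG dinucleotides (95% interval 3 to 4, quartiles 1 and 6). The 10727 protein-coding starts on comparison baits held a median of 20 (19 to 20, quartiles 7 and 30). At least 20 CG dinucleotides were found in 4.69% of the former (3.34 to 6.55%) and 50.5% of the latter (49.6 to 51.5%). Long noncoding starts that lay on comparison baits, 1998 in number, held a median of 14 (12 to 15), and most of those shared their bait with a coding start, since only 660 comparison baits had a long noncoding start and no coding one. Clone-based symbols of other series, such as AC or AL with digits, were on 1096 comparison baits, so the comparison class is not free of clone names. The letters TATAAA, sought on both strands anywhere in the window, occurred in 16.9% of the member windows (14.2 to 19.9%), in 9.86% of the coding windows (9.31 to 10.4%) and in 11.9% of all 21133 windows on named baits.

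The 4 windows below are shown because their baits carry results described further on. They are hg19 reference sequence, 5′ to 3′ on the strand of the gene, with CG dinucleotides in capitals. RP11-481C4.1 had the most interactions and RP11-712B9.2 the most distant cluster of high scores among the richest baits. LINC02551 is annotated on the bait named RP11-890B15.2, which gave the highest score, and LINC00158 contacted the host gene of miR-155. The gene annotated by position on the RP11-712B9.2 bait is LNCRNA-IUR.
RP11-481C4.1, chr17:49119635-49119934, plus strand: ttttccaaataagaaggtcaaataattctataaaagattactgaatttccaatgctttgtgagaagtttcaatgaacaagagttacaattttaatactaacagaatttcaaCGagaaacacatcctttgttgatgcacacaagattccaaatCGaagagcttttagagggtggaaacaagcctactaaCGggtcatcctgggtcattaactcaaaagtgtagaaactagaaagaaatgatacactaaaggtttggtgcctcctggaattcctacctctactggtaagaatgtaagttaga
LNCRNA-IUR, chr11:94883453-94883752, plus strand: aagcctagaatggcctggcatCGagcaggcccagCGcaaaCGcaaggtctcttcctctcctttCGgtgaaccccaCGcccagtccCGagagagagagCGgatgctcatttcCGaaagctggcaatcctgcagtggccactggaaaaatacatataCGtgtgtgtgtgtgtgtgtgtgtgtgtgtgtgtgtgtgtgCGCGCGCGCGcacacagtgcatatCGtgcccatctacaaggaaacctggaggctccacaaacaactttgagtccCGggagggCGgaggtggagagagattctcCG
LINC02551, chr11:130735407-130735706, minus strand: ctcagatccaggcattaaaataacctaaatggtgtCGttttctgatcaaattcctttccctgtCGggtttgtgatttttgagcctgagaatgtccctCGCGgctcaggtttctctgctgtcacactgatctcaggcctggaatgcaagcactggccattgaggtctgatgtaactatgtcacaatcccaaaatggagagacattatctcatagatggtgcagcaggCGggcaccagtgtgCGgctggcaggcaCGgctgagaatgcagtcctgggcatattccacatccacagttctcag
LINC00158, chr21:26803964-26804263, minus strand: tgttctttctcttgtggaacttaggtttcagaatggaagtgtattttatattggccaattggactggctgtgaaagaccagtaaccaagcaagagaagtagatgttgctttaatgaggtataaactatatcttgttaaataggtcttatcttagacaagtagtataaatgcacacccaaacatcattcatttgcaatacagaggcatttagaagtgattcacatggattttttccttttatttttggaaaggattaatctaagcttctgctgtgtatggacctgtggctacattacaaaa

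The window of LINC00158 held no CG dinucleotide, that of RP11-481C4.1 held 3 and that of LINC02551 held 7. The LNCRNA-IUR window held 18, some of them inside an alternating run. The LINC00158 and RP11-481C4.1 windows contained TATAAA on one of the strands and the others did not.

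Fewer interactions were called from long noncoding baits than from comparison baits. Members had a mean of 4.50 interactions (SD 6.15, n = 757 baits) against 6.08 (SD 8.09, n = 12636), a difference of -1.57 (95% interval -2.03 to -1.11). Medians were 2 and 3. The difference was mainly with baits that carry a coding promoter, but not only with those. Among baits without an annotated protein-coding transcript start, 705 members averaged 4.58 interactions (4.12 to 5.05) and 2602 comparison baits differed from them by little, the members' mean less theirs being -0.14 (-0.66 to 0.39). Where a long noncoding gene start but no protein-coding one was annotated, the difference remained. Members there averaged 4.48 (4.01 to 4.96, n = 631) and comparison baits 5.56 (4.97 to 6.14, n = 660). A single interaction was called from 258 of 757 members, or 34.1% (30.8 to 37.5%). The share was 24.9% for comparison baits (24.2 to 25.7%) and 25.1% for all listed baits. Some of these baits were also called from another promoter, which is not counted here. At least 10 interactions were found for 87 members (11.5%, 9.41 to 14.0%) and for 17.8% of comparison baits (17.1 to 18.5%). The members were very uneven, since those 87 baits held 46.3% of all long noncoding interactions. Baits that captured no significant interaction are not in the list, so their share was not analysed here, but 78 more long noncoding baits appeared only as the other end of a call made from another bait.

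**Figure D1:**
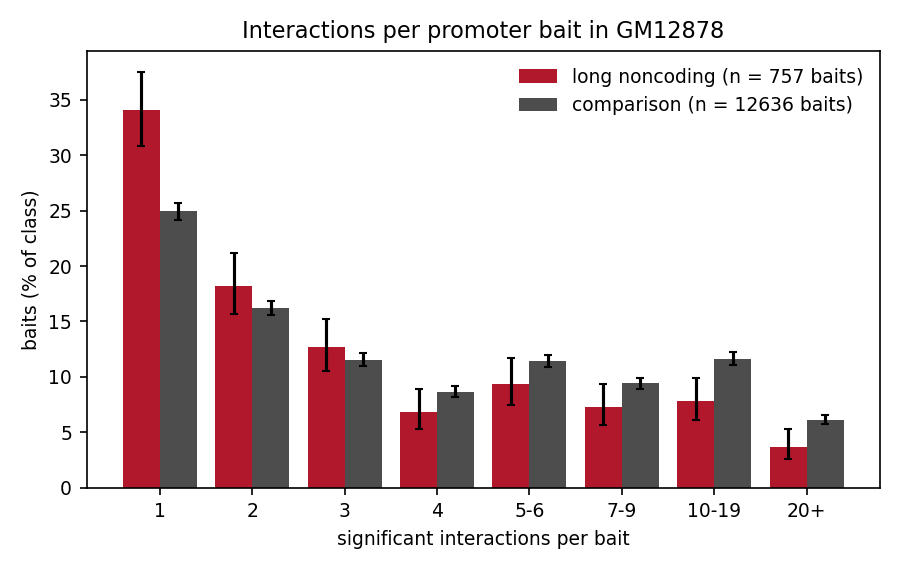
Share of baits (y axis, % of class) by number of significant interactions (x axis) for 757 long noncoding and 12636 comparison baits, with 95% Wilson intervals as bars. Interactions are those called from the bait. A single one was called from 34.1% of long noncoding and 24.9% of comparison baits, and the order was turned from 4 interactions upwards.

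The members' mean was lower in each stratum of bait spacing, length and GC content, when comparison baits of all kinds were taken. It was also lower in each stratum of CpG content, where the comparison baits were only the 9077 with a protein-coding gene start. Member baits were shorter, with a median of 5235 bp (5010 to 5742) against 6746 bp (6654 to 6853), and lower in GC, with 43.7% against 47.3%. Below 40% GC the intervals overlapped (3.44, 2.57 to 4.31, n = 195 against 3.91, 3.66 to 4.15). They also overlapped from 40 to 45% (4.63, 3.92 to 5.35, n = 230 against 5.52, 5.24 to 5.80). From 45 to 50% they did not (5.32, 4.37 to 6.27, n = 181 against 6.74, 6.44 to 7.05). The same held at 50% or more (4.70, 3.68 to 5.72, n = 151 against 6.83, 6.59 to 7.07). Their nearest named bait lay 25.7 kb away at the median (21.2 to 31.0), against 21.0 kb (20.3 to 21.7). Among baits with another named bait within 5000 bp, members had a mean of 5.54 interactions (4.56 to 6.53, n = 166) and comparison baits 7.93 (7.60 to 8.26, n = 3254). Among baits more than 50 kb from any other, the means were 3.40 (2.75 to 4.05, n = 243) and 4.57 (4.34 to 4.80, n = 3649). Both classes had fewer interactions where baits were sparse, and in this sparsest stratum 52.3% of members (46.0 to 58.5%) had a single interaction against 37.0% (35.4 to 38.6%).

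Among comparison baits with a protein-coding start the number of interactions was lowest at the lowest CpG content, but did not rise steadily with it. Comparison baits whose protein-coding windows held at most 4 CG dinucleotides had a mean of 5.35 interactions (5.02 to 5.69, n = 1643). Those with 5 to 9 had 6.66 (6.14 to 7.17, n = 1118), and those with 20 or more had 6.64 (6.40 to 6.88, n = 4719). The highest mean was at 10 to 19, given below. Members with at most 4 had 4.19 (3.59 to 4.78, n = 400), and the 28 members with 20 or more had 4.79 (3.57 to 6.001). The members thus lay below comparison baits with a coding start at equal CpG content. In the stratum of 10 to 19 the intervals overlapped (5.18, 3.19 to 7.17, n = 51 against 7.13, 6.65 to 7.62). Comparison baits without a coding start were not in these strata. The part of CpG content in the difference was not tested.

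**Figure D2:**
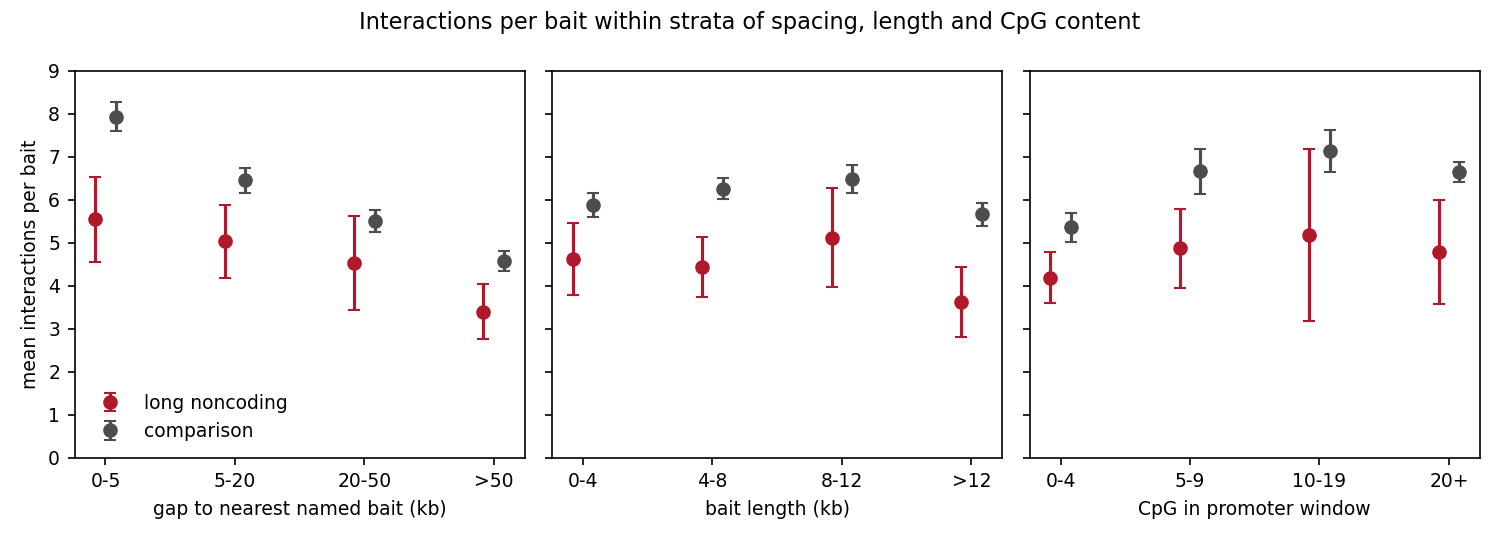
Mean significant interactions per bait (y axis) with 95% intervals, in strata of the gap to the nearest named bait, of bait length and of CG dinucleotides in the promoter window (x axes). Long noncoding means lay below comparison means in every stratum, with overlapping intervals in the 20 to 50 kb spacing, 8 to 12 kb length and 10 to 19 CpG strata. In the CpG strata the comparison baits are only those with a protein-coding gene start.

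Clone-based names are unequally used between chromosomes, so the members were unequally spread, with 118 on chromosome 1, 76 on chromosome 11, 10 on chromosome 2 and 7 on chromosome 17. On all 12 chromosomes with at least 20 members, the mean number of interactions was lower for members than for comparison baits. The gap was widest on chromosome 12, with 4.45 against 7.99, and on chromosome 5, with 3.53 against 6.86. It was narrowest on chromosome 20, where 24 members averaged 4.38 and comparison baits 4.67. Of the chromosomes with fewer members, 17 and 21 went the other way and the rest did not. On chromosome 17 the means were 15.3 for 7 members and 7.25 for comparison baits. On chromosome 21 they were 8 for 3 members and 4.43. Weighting the comparison baits to the chromosomes of the members gave a difference of -1.77.

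**Figure D3:**
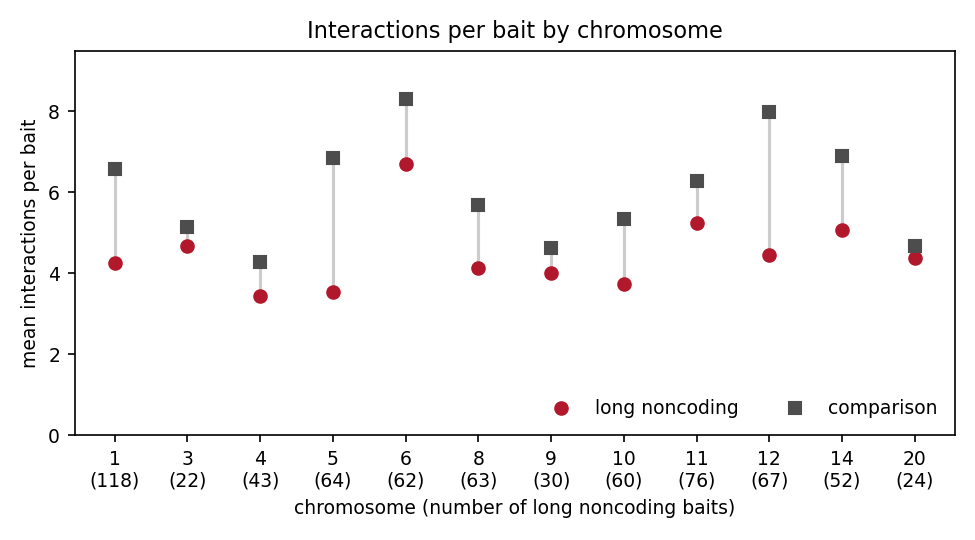
Mean significant interactions per bait (y axis) on the 12 chromosomes with at least 20 long noncoding baits (x axis, number of members in brackets). The long noncoding mean lay below the comparison mean on each of them.

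Matching the position of the bait relative to coding genes narrowed or turned the difference, except on baits with a protein-coding start, where it was wider. A protein-coding transcript start lay on 52 members (6.87%) and on 10034 comparison baits (79.4%), and those comparison baits averaged 6.43 interactions (6.26 to 6.59) against 3.46 (2.45 to 4.47) for the 52. On coding exons without a start the means were 4.72 for members (3.98 to 5.46, n = 246) and 5.24 for comparison baits (4.78 to 5.69, n = 779). In long noncoding genes outside coding genes they were 4.31 (3.68 to 4.95, n = 267) and 5.14 (4.48 to 5.80, n = 498). On coding introns alone the members were the higher, with 4.48 (3.39 to 5.57, n = 186) against 4.03 (3.65 to 4.42, n = 741), and the 6 members outside genes of both types averaged 14 against 4.53. In the exon, intron and long noncoding gene positions the intervals overlapped.

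Among the members themselves the strand of the start made little difference. Of the 682 annotated starts, 370 (54.3%) lay in a protein-coding gene on the opposite strand, 23 (3.37%) only in genes on the same strand, and 289 (42.4%) outside coding genes. Baits with antisense starts had a mean of 4.37 interactions (3.70 to 5.03, n = 364) and those with starts outside coding genes 4.50 (3.86 to 5.14, n = 260). The 23 baits with same-strand starts averaged 6.30, with an interval from 3.27 to 9.33 that takes in both other values. By kind of name, RP baits averaged 4.72 (4.21 to 5.22), LINC baits 3.49 (2.26 to 4.72, n = 45) and CT baits 3.32 (2.46 to 4.18, n = 75).

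The interactions that members did have reached further. The median distance between fragment centres was 205 kb in *cis* (198 to 212, n = 3404 calls) against 172 kb (171 to 174, n = 76515), a difference of 32.2 kb (25.5 to 39.3). Quartiles were 105 and 343 kb for members and 81.4 and 301 kb for comparison baits. Taking each bait's own median first, so that baits with many interactions did not dominate, gave 199.7 kb (189 to 212) and 183 kb (180 to 187), which narrowed the gap to 16.6 kb (5.44 to 29.5). Fewer member calls lay within 100 kb (23.9%, 22.5 to 25.4%, against 30.1%, 29.8 to 30.5%), and more lay between 500 kb and 1 Mb (9.85%, 8.90 to 10.9%, against 6.68%, 6.51 to 6.86%). Beyond 1 Mb the order was the other way, with 1.06% (0.764 to 1.46%) against 1.81% (1.72 to 1.91%).

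The longer reach was clearer for partners that were not promoters. Unbaited other ends lay at a median of 209.9 kb (201 to 221) for members and 172 kb (170 to 173) for comparison baits. For bait-to-bait interactions the medians were 191 kb (176 to 204) and 174 kb (172 to 178). Spacing of baits moved with distance in both classes, from 170.4 kb (155 to 182) for members with a neighbour within 5000 bp to 251 kb (237 to 275) for those more than 50 kb from any bait, and the comparison medians were lower in each spacing stratum (157 and 217 kb at the 2 ends). By GC content the order was not constant. Below 40% GC the median was 199.5 kb for members (183 to 216) and 211 kb for comparison baits (205 to 216). From 40 to 45% the medians were 215 kb (204 to 225) and 201 kb (197 to 204). From 45 to 50% they were 222 kb (203 to 235) and 171 kb (168 to 173). At 50% or more they were 171 kb (157 to 191) and 156 kb (154 to 158).

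**Figure D4:**
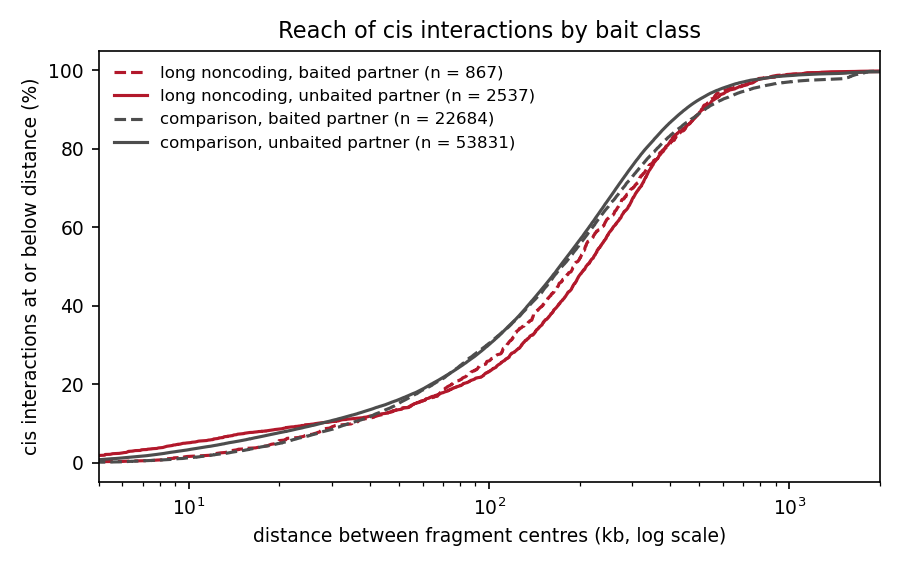
Cumulative share of *cis* interactions (y axis, %) at or below the distance between fragment centres (x axis, kb, log scale), by class and by whether the partner was baited. The long noncoding curves lie to the right of the comparison curves over the middle of the range, with medians of 209.9 and 172 kb for unbaited partners.

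Read counts of members' interactions were close to the rest at equal distance, and scores were slightly lower except from 500 kb to 1 Mb. The median read count per call was 15 for members (14 to 15) and 16 for comparison baits (15 to 16), and the median score 6.43 (6.36 to 6.51) against 6.63 (6.62 to 6.65). A score of at least 10 was reached by 455 member calls, or 13.3% (12.2 to 14.5%), against 16.3% of all listed calls. Within 100 kb the median counts were 28.5 and 28 reads, from 100 to 500 kb they were 13 and 14, and from 500 kb to 1 Mb both were 9. Median scores differed by 0.03 in that last range (interval -0.21 to 0.21) by -0.14 within 100 kb (-0.33 to 0.09), by -0.17 from 100 to 500 kb (-0.27 to -0.09) and by -0.735 beyond 1 Mb (-1.65 to -0.27), where members had 36 calls.

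Contacts between promoters were somewhat rarer for members. Bait-to-bait interactions made up 867 of 3410 member calls, or 25.4% (24.0 to 26.9%), against 29.6% (29.2 to 29.9%), a difference of -4.13 percentage points (-5.60 to -2.60). Among baits more than 20 kb from any other named bait the difference was 0.0646 points (-2.01 to 2.26), and beyond 50 kb the members had the higher share, 24.5% (21.6 to 27.5%) against 19.8% (19.2 to 20.4%). The lower share was thus seen for baits with neighbours within 50 kb. By CpG content the comparison was only with baits that had a protein-coding start. Members with at most 4 CG dinucleotides had 24.7% (22.7 to 26.9%) against 31.5% (30.6 to 32.5%). Those with 20 or more had 41.0% (33.1 to 49.5%, from 28 baits) against 26.7% (26.2 to 27.2%), the opposite order. At least 1 baited partner was called from 385 of 757 members (50.9%, 47.3 to 54.4%) and from 61.4% of comparison baits (60.5 to 62.2%). Partners that only called the bait from their own side are not in these shares. Of the 867 member calls 198 were also called from the partner's side (22.8%, 20.2 to 25.7%), against 31.3% (30.7 to 32.0%) in the comparison class.

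Most promoters contacted by members were not long noncoding ones. Of the 867 baited partners 658 were comparison baits, 127 carried symbols of both kinds and 82 were other members. Long noncoding baits were 9.46% of the members' partners (7.68 to 11.6%) and 3.00% of the comparison baits' partners (2.79 to 3.23%), a difference of 6.46 points (4.67 to 8.60). Members also lie near each other, and among all named baits within 500 kb of a member 9.55% were long noncoding (weighted by each bait's contacts), against 3.42% around comparison baits. The share among partners was therefore close to the local share in both classes.

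The 82 calls joined 78 pairs of long noncoding baits, all in *cis*, and 4 of the pairs were called from both ends. Names from a single clone were shared by 17 pairs, and distances ran from 7.79 to 1776 kb with a median of 175 kb. The highest score was 25.8 with 20 reads, between RP11-64D24.2 (chr11:114226112-114232849) and RP11-64D24.4 (chr11:114250749-114257903), 24.8 kb apart. RP11-90P5.4 and RP11-90P5.5, on a bait in an intron of ASH2L, a subunit of histone H3K4 methyltransferase complexes, met RP11-90P5.7 42.1 kb away with 35 reads and a score of 25.3. RP3-486I3.5, on a bait with an exon of NT5DC1, met RP11-259P20.1 245 kb away with 14 reads and a score of 19.5. The bait of CTC-338M12.2 and CTC-338M12.5 met CTC-338M12.1 at 24.3 kb with a score of 18.7. That of RP11-436M15.1 and RP11-436M15.3, in an intron of EVL, met RP11-638I2.2 at 276 kb with a score of 18.4, and that partner bait also carries a start of YY1, a transcription factor found at many promoters and enhancers.

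The promoter of the surrounding gene was an occasional partner. A protein-coding gene whose own start lay on another named bait surrounded 344 members, and 72 of these called that promoter (20.9%, 17.0 to 25.5%), or 108 when calls from either end were counted (31.4%, 26.7 to 36.5%). For comparison baits in the same position, 591 of 2501 called it (23.6%, 22.0 to 25.3%), or 877 from either end (35.1%, 33.2 to 37.0%). Their median gap was 22.4 kb against 38.9 kb for members. The intervals overlap and the gaps differ, so no difference between the classes was shown. The examples with the highest scores, chosen after their values were seen, were CTC-338M12.2 with TRIM7 (45.4), RP11-513D5.5 with NSD3, a histone H3K36 methyltransferase (33.6, 106 kb away), and RP11-168K11.2 with RGS3, a regulator of G-protein signalling (28.0, 146 kb away). The nearest comparison bait, not adjacent, was called by 118 members (15.6%, 13.2 to 18.3%) and by 19.6% of comparison baits (18.9 to 20.3%), at median gaps of 45.7 and 31.0 kb.

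Unbaited other ends of members were less often shared with comparison baits and more often with long noncoding ones. Of 2543 such calls, 1099 landed on a fragment also called from a comparison bait (43.2%, 41.3 to 45.2%), against 54.3% of calls from comparison baits that were shared with another comparison bait (53.9 to 54.7%). Sharing with another long noncoding bait was the other way, with 6.37% of member calls (5.49 to 7.39%) against 4.08% of comparison calls (3.92 to 4.25%). Long noncoding baits were also denser around members, at the 9.55% against 3.42% of nearby named baits given above. The part of this density in the sharing was not tested. The members' share with comparison baits was lower in each spacing stratum, with 64.4% against 71.8% where the next named bait was within 5000 bp and 23.7% against 31.3% beyond 50 kb. Fewer of these fragments held an annotated protein-coding start (11.4%, 10.2 to 12.7%, against 17.6%, 17.3 to 17.9%), and more lay outside both coding and long noncoding genes (29.4%, 27.6 to 31.2%, against 24.6%, 24.2 to 25.0%). Intronic fragments without a coding exon were about equally common, at 25.2% (23.6 to 27.0%) and 24.4% (24.0 to 24.7%). The 2543 calls fell on 2459 distinct fragments, and 78 of these were called from at least 2 members.

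The 10 members with the most interactions held 374 calls, 10.97% of the long noncoding total. First was RP11-481C4.1, on a 3822 bp bait (chr17:49119440-49123261) in an intron of SPAG9, a scaffold protein for JNK signalling. It had 65 interactions at 2.74 to 293 kb (median 69.2 kb) with 10 to 131 reads, 48 of them towards lower coordinates, and 1 was with a baited fragment. Its highest scores, 21.9, 19.9 and 17.3, all fell inside SPAG9, from 9.18 to 43.5 kb away. In all, 36 of the 65 contacts were with fragments of the gene that holds the bait, and its own promoter window, shown above, held 3 CG dinucleotides.

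RP11-603J24.6 (chr12:56513471-56516470) lay in the ESYT1 and ZC3H10 locus and had 44 interactions, 40 towards higher coordinates and 9 with baited fragments. Its highest-scoring baited partner was the SMARCC2 promoter, 69.1 kb away with 73 reads and a score of 14.9, and an unbaited fragment with another start of SMARCC2 scored 15.9. SMARCC2 encodes a core subunit of the SWI/SNF chromatin remodelling complex. RP11-390K5.3 (chr11:47144706-47158058), in an intron of CSTPP1, had 33 interactions, 32 of them to lower coordinates, with its 3 highest scores of 14.5, 13.6 and 12.2 in LRP4, a receptor of the LDL receptor family, between 223 and 259 kb away. RP11-66D17.5 (chr1:156682729-156685224) had 30 interactions, of which 2 reached a score of 10.

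Some of these baits had no contacts close by. The bait of RP3-522P13.1 and RP3-522P13.3 (chr6:25254994-25266229) had 35 interactions, all at higher coordinates between 203 and 537 kb and none with a baited fragment, and its 3 highest scores of 16.1, 12.04 and 11.5 were in CARMIL1, a regulator of actin capping. RP11-712B9.2 (chr11:94879591-94887222) had 30 interactions, again all on 1 side, between 383 and 1278 kb with a median of 584 kb, the last 2 of them apart from the rest at 1273 and 1278 kb. Its nearest interaction was thus further than the median of the class, and its highest scores of 40.5, 20.0 and 18.5 lay at 552, 558 and 611 kb. RP11-162J8.2 (chr6:149279974-149287735), in UST, had 25 of 29 interactions at lower coordinates, with its highest scores of 15.0, 13.2 and 12.9 between 365 and 381 kb. Among members with at least 10 interactions, 43 of 87 had at least 90% of them on 1 side (49.4%, 39.2 to 59.7%), and among such comparison baits 835 of 2246 did (37.2%, 35.2 to 39.2%), so the intervals only just overlapped.

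**Figure D5:**
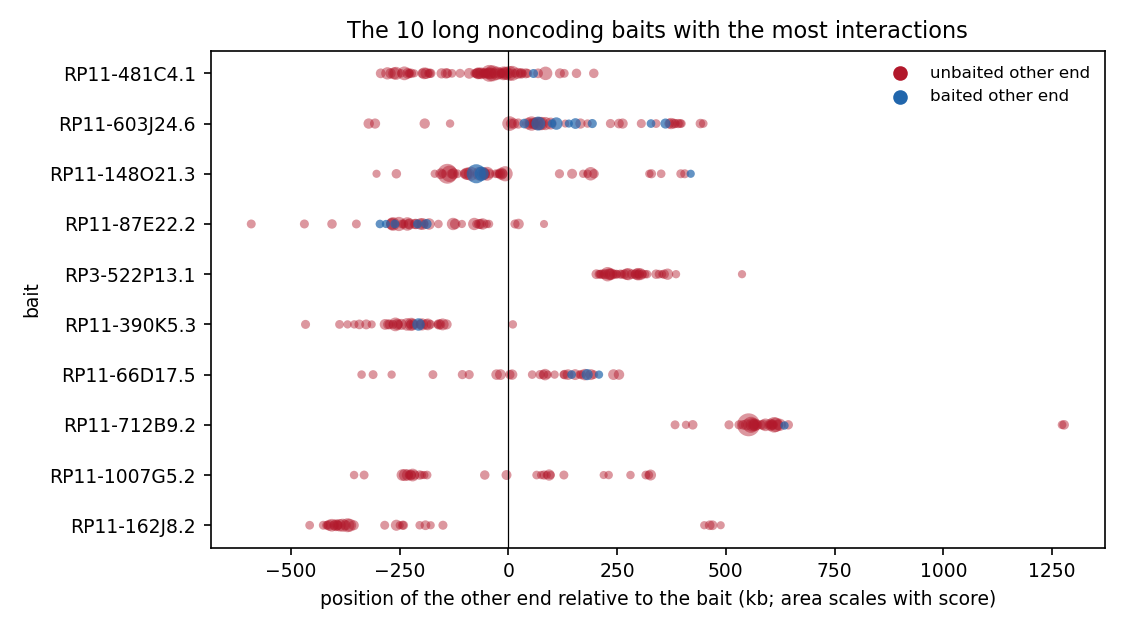
Position of each other end relative to its bait (x axis, kb, negative towards lower coordinates) for the 10 long noncoding baits with the most interactions (y axis, first symbol of each bait), with point area proportional to the score. RP3-522P13.1 and RP11-712B9.2 have all their interactions on 1 side, from 203 and 383 kb outwards.

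The other members among those 10 lay in introns of coding genes. The bait of RP11-148O21.3 and RP11-148O21.6 (chr8:11408759-11412168) lay in an intron of BLK, a Src-family kinase of B lymphocytes, and had 41 interactions at 7.28 to 419 kb, 14 of them with fragments of BLK itself. It met the BLK promoter 61.3 kb away with 36 reads and a score of 15.4, the FAM167A promoter 73.6 kb away with 68 reads and a score of 28.0, and an unbaited fragment in an intron of FAM167A-AS1 140.0 kb away with a score of 30.3. RP11-1007G5.2, annotated as ETS1-AS1 in an intron of ETS1, a lymphoid transcription factor, had 29 interactions, 16 to lower and 13 to higher coordinates, none with a baited fragment and 2 inside ETS1. Its highest score was 12.5, at 219.8 kb. A bait in an intron of PEBP4 (chr8:22731675-22742580) had 38 interactions, with its highest scores of 15.6, 14.5 and 14.1 on starts of BIN3 and CCAR2 between 232 and 265 kb away.

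A list of 52 genes that define B cell identity, signalling and NF-κB activity, chosen with earlier results known, was looked up among the partners, and 49 of them were on a named bait. Of the 757 members 3 contacted a promoter of the list (0.396%, 0.135 to 1.16%), against 97 of the 12596 comparison baits off the list (0.770%, 0.632 to 0.938%) and 0.756% of all baits off the list. The members' interval takes in that background. Besides the BLK contact, RP3-416J7.5 (chr6:187372-203815) met the promoter of IRF4, a factor of plasma cell differentiation, 198 kb away with 47 reads and a score of 12.2. RP11-220I1.2 (chr9:37108102-37120036) met the promoter of PAX5, the factor that maintains B cell identity, 109.7 kb away with 15 reads and a score of 5.91.

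Of 20 well-known long noncoding symbols 4 were on listed baits, and 3 of those baits also carried a symbol outside the rule. LINC00158 (chr21:26803999-26805415) was the only member. It had 16 interactions at 2.40 to 537 kb with 7 to 95 reads, 13 of them to higher coordinates, and its scores ran from 5.15 to 8.31. Both of its baited partners carried MIR155HG, the host gene of miR-155, a microRNA abundant in activated and virus-transformed B cells. The fragment with the MIR155HG start lay 128 kb away with 31 reads and a score of 6.93, and the next MIR155HG bait 142 kb away with 29 reads and a score of 6.79. A fragment between those baits, with an exon of the gene, scored 7.53 with 16 reads. None of the 16 calls reached a score of 10.

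The highest single score of a member was 67.4 with 70 reads, from RP11-890B15.2 (chr11:130731664-130738476), annotated as LINC02551, to the promoter of ADAMTS8, a secreted metalloprotease, at chr11:130296757-130307018 and 433 kb away. The bait of CTC-338M12.2 and CTC-338M12.5 (chr5:180609719-180621413) met the neighbouring TRIM7 promoter at 14.2 kb with 86 reads and a score of 45.4. Next came the contact of RP11-712B9.2 at 552 kb given above. RP11-436M15.1 and RP11-436M15.3 (chr14:100440118-100448253) met a bait with MIR342, a microRNA inside EVL, at 131 kb with 29 reads and a score of 35.1. RP11-54O7.16 and RP11-54O7.1 (chr1:831895-848168) met the bait of SAMD11 at 22.3 kb with 38 reads and a score of 34.9. Scores of this size came from near and far contacts alike, and 4 of these 5 partners were baited.

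Very long calls were few and rested on few reads. Members had 36 *cis* calls over 1 Mb, from 19 baits, with a median of 7 reads, and 6 *trans* calls (0.176%, 0.0807 to 0.383%, against 0.343%, 0.304 to 0.386%). The 4 longest were from LINC00842 (chr10:47148629-47152641) to fragments of one region 4359 to 4397 kb away with 5 to 7 reads, 1 of which carried MSMB. The next was from the bait of RP11-159L20.2 to EAPP, 3730 kb away, with 3 reads and a score of 5.36. Of the *trans* calls, 5 were from LINC00955 on chromosome 4 to chromosome 9, with 3 or 4 reads, and 1 was from RP11-598F7.5 near the end of chromosome 12 to a fragment on chromosome 2 with starts of the WASH2P pseudogene, with 4 reads and a score of 13.7. Assembly gaps of at least 10 kb lay within 500 kb of an end in 12 of these 42 calls, including all 6 in *trans* and all 4 of LINC00842. Both fragments of a call shared no alignment of at least 100 bp at 95% identity in any of the 42, and the part of the gaps in these calls was not tested.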

How the data were processed

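Promoter CHi-C of GM12878 was available as 3 biological replicates that the authors had merged before interactions were called. Reads were aligned to hg19 (Bowtie 1.1.0 is named in the submitters' processing notes) and the authors scored pairs of *Hin*dIII fragments with CHiCAGO. The deposited list has 2 values for every pair that reached a score of 5, its read count as a weighted mean over replicates and its CHiCAGO score, and total depth is not recoverable from it. A bait-to-bait pair can be listed from each end. The deposited browser list gives the score of each pair once, and was used as an alternative. The mouse files and the Hi-C file were not used, and 0 columns of values were left without a sample.

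All 56775 listed fragments matched an in silico digest of the hg19 reference (837157 fragments). Gene starts, exons and types were taken from GENCODE release 44 lifted to the same build. Of the 815 symbols on member baits, 35 were still names of genes with a start on a bait, so current names are by position. The list had 256 baits named NA, which were kept in the comparison class. *Cis* distance was measured between fragment centres. Shares have Wilson intervals, medians exact binomial order-statistic intervals, means normal intervals over baits, and differences intervals combined from both classes. No p-values were computed, since calls from 1 pooled set have no replicates. Fragments of calls over 1 Mb or in *trans* were aligned with blastn 2.17.0. Other computation used Python 3.11.15, pandas 2.3.3, numpy 2.4.6 and scipy 1.17.1.

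The members, gene lists and comparisons were chosen with earlier results of these data known. Named were the 10 baits with the most calls, the 5 calls with the highest score, the 5 longest in *cis*, those in *trans*, the 5 highest-scoring long noncoding pairs, and contacts with, or members of, the 2 gene lists. Alternatives were a score of at least 10, the browser list, calls under 1 Mb, a rule by annotated gene type and baits with no named bait within 20 kb. Another 6 were chosen after seeing the data.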

Additional observations from a re-analysis of the deposited data

How the results depend on the processing

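Fewer interactions and a longer median reach for long noncoding baits kept their direction under all alternatives run, but not always with an interval clear of 0. With a score of at least 10, members had 2.24 interactions per bait, a median distance of 170.1 kb and a bait-to-bait share of 43.5%, and the differences from comparison baits were -0.58 interactions (-0.91 to -0.24), 21.4 kb (4.44 to 41.2) and -1.71 points (-6.27 to 2.97). The browser list, which counts a pair for either end, gave a bait-to-bait share of 38.1%. Its differences were -1.83 interactions (-2.31 to -1.36) and -3.28 points (-4.79 to -1.76). Baits with no named bait within 20 kb gave 3.86 interactions, 228 kb and 23.6%, and the difference in bait-to-bait share changed sign to 0.0646 points (-2.01 to 2.26). The rule by annotated gene type took 196 baits, of which 34 were members and 160 were comparison baits by symbol, and left 722 members in its comparison class. It gave 5.17 interactions and 175 kb, with differences of -0.88 interactions (-1.85 to 0.09) and 2.41 kb (-9.22 to 12.3). By position 631 of the 757 members carried a long noncoding start and no coding one, so that comparison class held many long noncoding baits. These differences therefore cannot decide whether the main ones hold by gene type.

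Among alternatives chosen after seeing the data, taking both classes by the position of gene starts (1664 long noncoding and 10624 protein-coding baits) gave 5.08 interactions, 194 kb and 27.5%, with differences of 23.3 kb (18.8 to 27.8) and -2.00 points. Baits without a protein-coding start in both classes gave differences of -0.14 interactions (-0.66 to 0.39) and 22.0 kb (13.05 to 30.4), so the lower number of interactions was lost and the longer reach was kept. Keeping promoters with fewer than 5 CG dinucleotides, only coding ones in the comparison class, gave a difference of -6.80 points in bait-to-bait share. Members with 20 or more had the higher share. Without RP11-481C4.1 the members averaged 4.42 interactions, and that bait decided no difference. Of 67 values recomputed under alternatives that could change them, 44 stayed within the interval of the value reported. No paired analysis was possible because the replicates had been merged before calling, and for the same reason no replicate could be left out. Reads per call limit the longest contacts, with a median of 7 reads over 1 Mb.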
